A study of Drosophila melanogaster with 17 samples.

Results

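The genes of the BMP pathway, the Drosophila branch of TGF-beta signalling built around the ligand Decapentaplegic (Dpp), were measured by RNA sequencing in cells sorted from the adult midgut by their expression of escargot (esg+ cells). The 10 genes were dpp, gbb, tkv, sax, put, Mad, Med, Dad, brk and shn. They were chosen by name as pathway components and matched by symbol to FlyBase identifiers, and each symbol matched 1 of the 17807 genes counted. All 10 passed the filter on low counts in both batches, but dpp passed in batch 1 only through the libraries with da overexpression.

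In this pathway the secreted ligands Dpp and Gbb bind type I receptors (Tkv and Sax) that act with the type II receptor Put. The receptors phosphorylate the Smad protein Mad, which enters the nucleus with the co-Smad Med. With the zinc finger protein Shn, Mad and Med repress brk, which itself encodes a repressor of pathway targets, while Dad encodes an inhibitory Smad that is commonly induced by the signal. In the adult midgut the pathway is known for its part in stem cell maintenance and in the identity of the acid-secreting copper cells, and visceral muscle, trachea and enterocytes have been described as sources of Dpp.

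All flies carried esg-Gal4, which is active in intestinal stem cells and enteroblasts, with UAS-GFP and tub-Gal80[ts], a temperature-sensitive inhibitor of Gal4. They were kept at 18 °C until adulthood and then at 29 °C for 2 days, which switches on the UAS transgene. Batch 1 held 3 control libraries without a further transgene, 2 libraries with UAS-da (monomeric daughterless) and 3 with UAS-da-RNAi. Batch 2 held 3 controls, 3 libraries with UAS-da:da (the forced Da homodimer) and 3 with UAS-scute. Daughterless is the fly E protein of the bHLH family and Scute is one of its proneural partners. Each library came from about 100 pooled midguts and 20000 to 40000 sorted GFP-positive cells. Because esg-Gal4 marks a mixture of stem cells and enteroblasts and the cells were measured in bulk, a lower level from fewer cells of a type and one from less RNA per cell cannot be told apart.

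Counts per library totalled 33889877 to 40868714 in batch 1. The totals of batch 2 were 47136298 to 66679229, and both mates of a pair added to them. Levels are CPM, counts scaled to a common library size, here on TMM-scaled library sizes, and changes are log2 fold changes ± SE against the control of the same batch. A gene was called at a Benjamini-Hochberg adjusted p under 0.05 over all genes tested, from edgeR's quasi-likelihood test. The da gene measured 112 ± 22.5 CPM (SD, n = 3) in batch 1 controls, 871 ± 36.5 (n = 2) with UAS-da and 27.9 ± 6.97 (n = 3) with UAS-da-RNAi. It measured 77.5 ± 1.99 CPM (n = 3) in batch 2 controls and 218 ± 24.3 (n = 3) with da:da, and sc rose from a mean of 1.77 to 2062 CPM with UAS-scute. In every group the gene that the transgene acts on moved as the label states.

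Mad was the most abundant of the 10 transcripts per kilobase of exon in both control groups, and dpp was the least abundant. In batch 1 controls Mad stood at 39.6 ± 2.93 CPM per kilobase, followed by Med (10.8 ± 0.954), sax (10.4 ± 0.626), gbb (6.38 ± 0.516), tkv (6.22 ± 0.257), put (5.79 ± 0.285), Dad (4.37 ± 0.214), brk (3.55 ± 0.914), shn (2.90 ± 0.615) and dpp (0.0360 ± 0.0189; SD, n = 3 throughout). Neighbours in this order that lay within 1 SD of each other, taking the larger SD, were Med and sax, gbb and tkv, Dad and brk, and brk and shn. In batch 2 controls the per-kilobase order was Mad (64.1 ± 15.5), sax (17.4 ± 0.923), tkv (16.5 ± 2.37), Med (14.3 ± 0.785), gbb (13.6 ± 2.51), put (10.8 ± 1.02), shn (7.81 ± 0.651), Dad (6.31 ± 0.131), brk (3.96 ± 0.239) and dpp (0.206 ± 0.0369). There sax, tkv, Med and gbb followed each other within 1 SD. The RNA was amplified before library preparation, and whether coverage was even along these transcripts was not tested. The batches differed in read length, 50 nt against 150 nt, so levels were compared only within a batch.

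Between 3 and 7 of the 10 members were called in each comparison with a control. With da overexpression 5 members rose (dpp, Mad, Med, Dad and shn) and 1 fell (tkv), where 22.9% of all 9540 genes tested were called, 13.5% higher and 9.36% lower. With da knock-down 2 rose (tkv and brk) and 1 fell (Mad), against 20.4% of all genes called (11.2% higher, 9.16% lower). With da:da 3 rose (dpp, Mad and shn) and 2 fell (tkv and brk), against 11.9% of 14190 genes (5.39% higher, 6.52% lower). With scute 5 rose (dpp, tkv, sax, put and Med) and 2 fell (gbb and Mad), where 45.0% of all genes were called (22.8% higher, 22.2% lower), so a call there sets a gene apart less than in the other comparisons. The median log2 change of the 10 members and of all genes tested was 0.44 and −0.02 with da, 0.00 and −0.01 with da knock-down, 0.12 and −0.01 with da:da, and 0.24 and 0.05 with scute. Mad and tkv were the members called in all 4 comparisons. Libraries of a genotype did not overlap its controls for 7 members with da, 4 with knock-down, 6 with da:da and 7 with scute. This held for 51.1%, 40.3%, 27.7% and 54.2% of all genes tested in these comparisons.

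**Figure D1:**
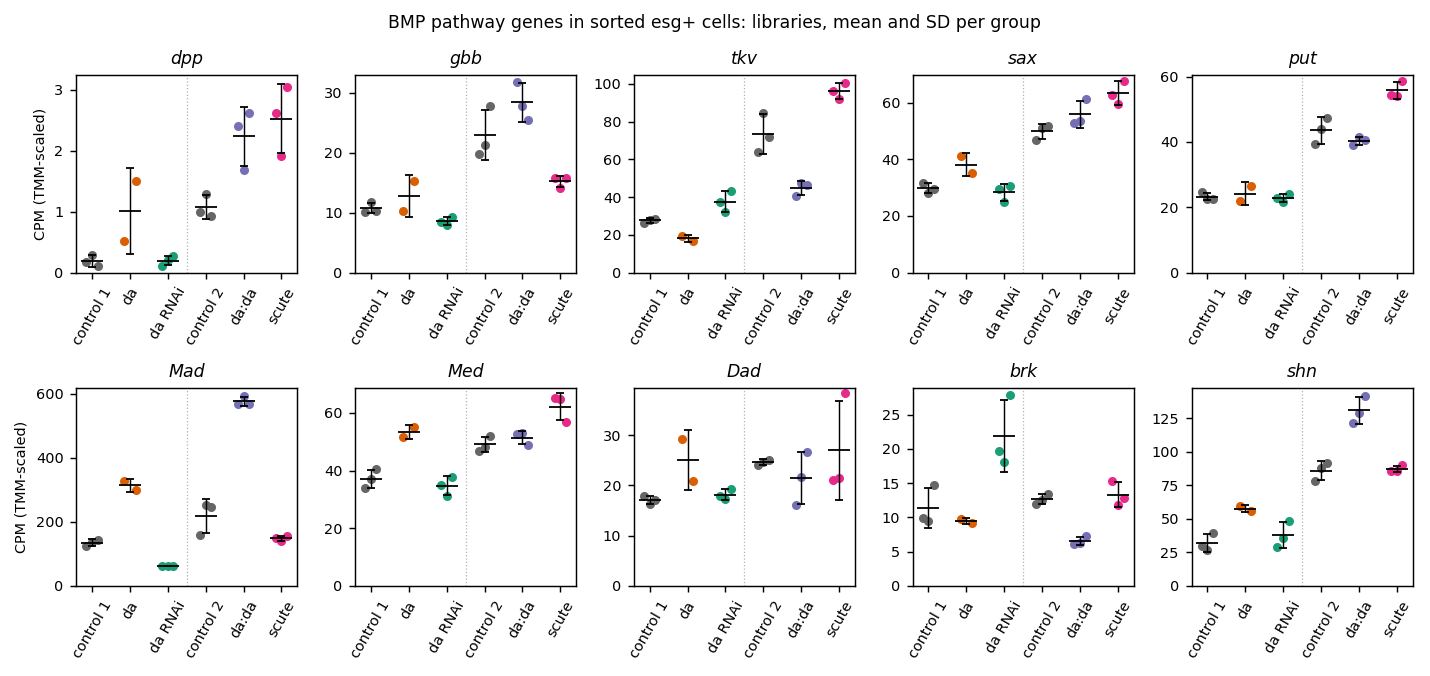
Levels of the 10 BMP pathway genes in every library, in CPM on a linear axis from 0. Points are libraries, bars the mean and SD of the 2 or 3 libraries of a group, and the dotted line separates the batches. Mad rose to 313 CPM with da and 575 with da:da and fell to 62.7 with da RNAi, while tkv moved the other way in each of these genotypes.

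**Figure D2:**
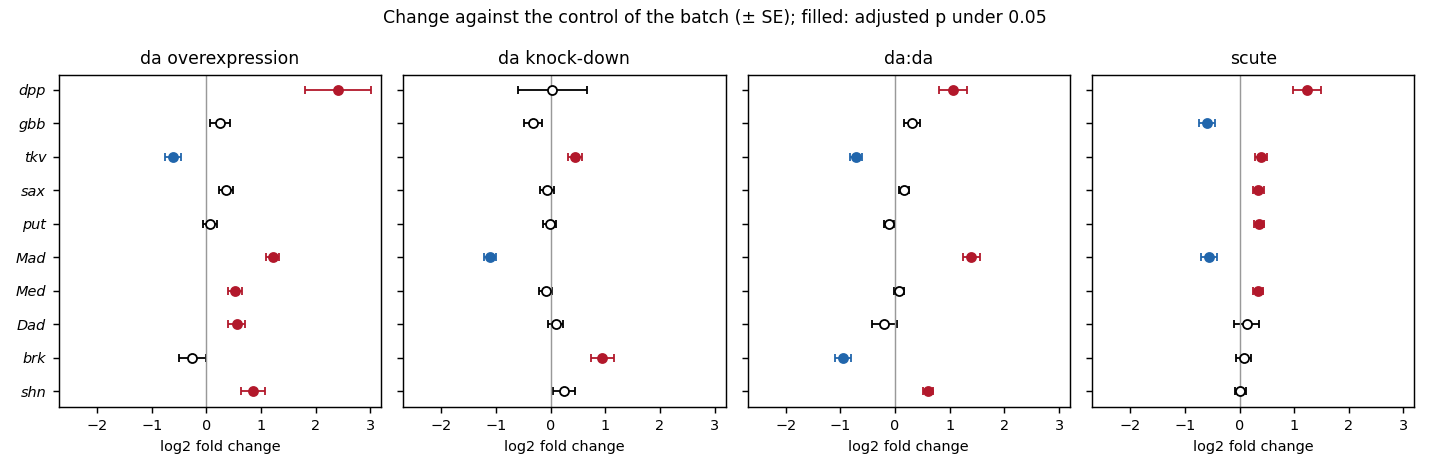
Log2 fold change of each gene against the control of its batch, in 1 panel per genotype, with bars of 1 SE. Filled points are called at adjusted p under 0.05, red higher and blue lower. Mad is filled in every panel, at 1.21 with da, −1.11 with da knock-down, 1.40 with da:da and −0.56 with scute.

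Ligands. The gene dpp (FBgn0000490, 2L:2428372-2459823 in build BDGP6.28) encodes the principal BMP ligand of the fly and was scarcely detected in batch 1. It had 7, 13 and 4 counts in the batch 1 controls, 4, 7 and 8 with da knock-down, and 17 and 67 with da overexpression. In CPM these were 0.166, 0.295 and 0.102 in controls, 0.113, 0.205 and 0.267 with knock-down, and 0.512 and 1.51 with da. Both da libraries lay above all 3 controls, and they lay further apart in CPM than the libraries of the other 2 groups of the batch. The filter on low counts kept dpp in batch 1 through these da libraries. Fits of only control and knock-down libraries dropped dpp, so its test with da was not independent of the filter. The rise with da was 2.41 ± 0.60 (adjusted p = 0.0181). It was 1.42 without da replicate 2 (adjusted p = 0.222), the call was also lost without control replicate 1 (adjusted p = 0.0630), and dpp fell below a stricter filter of 1 CPM in batch 1. With knock-down the change of dpp was 0.03, with a 95% interval from −1.39 to 1.45, which spans more than 1 log2 unit to either side of 0 at this depth.

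In batch 2 dpp was better covered. It measured 0.996, 1.29 and 0.933 CPM in controls, 2.39, 1.69 and 2.61 with da:da, and 2.62, 1.91 and 3.04 with scute. All 6 libraries with a transgene lay above the 3 controls. The rise was 1.06 ± 0.26 with da:da (adjusted p = 0.0188) and 1.23 ± 0.26 with scute (adjusted p = 0.00169), a 2.35-fold change. The da:da call for dpp was lost when any of 4 libraries was left out: control replicate 1 (adjusted p = 0.0621), control replicate 3 (0.0695), da:da replicate 1 (0.0571) or da:da replicate 3 (0.0571). It was lost too in a fit of all 17 libraries (0.0855), whereas the scute call for dpp was kept under every alternative tried.

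Visceral muscle and trachea are other possible carriers of dpp RNA, so their markers were summed. The 9 visceral muscle markers (Mhc, Mlc1, Mlc2, bt, sls, up, wupA, Mp20 and Act57B) summed to 9.01 to 10.97 CPM with da, 3.49 to 4.04 in batch 1 controls and 3.03 to 7.93 with knock-down. Of the 6 tested in batch 1, 3 were higher with da, where 13.5% of all genes were. The 5 trachea markers (trh, btl, serp, verm and Gasp) summed to 7.28 to 9.40 CPM with da and 11.1 to 13.8 in the controls. Of the 3 trachea markers tested there, 1 was lower with da, where 9.36% of all genes were. The median log2 change of these 3 markers was 1.06. In batch 2 the muscle sum was 44.3 to 68.5 CPM in controls, 55.1 to 110 with da:da and 58.7 to 119 with scute, which overlap. Of the 9 muscle markers 0 were higher with da:da and 2 with scute, where 5.39% and 22.8% of all genes were. The trachea sum in batch 2 was 10.7 to 11.5 CPM in controls, 11.4 to 12.5 with da:da and 10.2 to 11.8 with scute. None of the 5 trachea markers was called with da:da. With scute 3 were higher and 1 lower, where 22.8% and 22.2% of all genes were. No marker on these lists was at 0 in all libraries of a group. Enterocytes are described as a source of Dpp too, and their 10 markers summed to 419 to 621 CPM with da and 430 to 696 in batch 1 controls. With knock-down that sum was 706 to 1250 CPM. In batch 2 it was 1203 to 2229 CPM in controls, 726 to 1494 with da:da and 1514 to 1803 with scute. The part of these cells in the dpp values was not tested.

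The second ligand gene, gbb, encodes a broadly expressed BMP that can pair with Dpp. Its levels were 10.2, 11.8 and 10.3 CPM in batch 1 controls, 10.3 and 15.3 with da, and 8.41, 7.98 and 9.35 with da knock-down. The da libraries overlapped the controls and the knock-down libraries lay below them, and gbb was called in neither comparison (0.25, adjusted p = 0.360, and −0.33, adjusted p = 0.211). In batch 2 it measured 19.8, 21.3 and 27.8 CPM in controls, 31.9, 27.8 and 25.5 with da:da, and 15.8, 14.2 and 15.8 with scute. All scute libraries lay below all controls. The fall of gbb with scute was −0.59 ± 0.14 (adjusted p = 0.00461, 1.51-fold lower), and with da:da its change was 0.31 (adjusted p = 0.225). The fall with scute depended on the scaling. With library totals in place of TMM, which also raised the median of all genes, it was −0.15 (adjusted p = 0.387).

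Receptors. The type I receptor gene tkv (FBgn0003716, 2L:5219000-5271384) encodes the main Dpp receptor and moved opposite to Mad in all 4 comparisons. In batch 1 it measured 26.3, 27.8 and 28.6 CPM in controls, 19.5 and 16.7 with da, and 37.1, 32.1 and 43.2 with da knock-down. In batch 2 it measured 63.8, 84.6 and 71.6 CPM in controls, 40.5, 47.4 and 46.4 with da:da, and 96.3, 92.1 and 100.7 with scute. None of these 4 genotypes overlapped its control, and 27.7% to 54.2% of all genes tested did not overlap in a given comparison. The changes were −0.61 ± 0.15 with da (adjusted p = 0.0161), 0.44 ± 0.13 with knock-down (adjusted p = 0.0401), −0.71 ± 0.11 with da:da (adjusted p = 0.00142) and 0.39 ± 0.11 with scute (adjusted p = 0.0133). Of the exon bases of tkv, 4.78% are shared with genes on the opposite strand, and counting ignored strand.

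The tkv calls differed in how much they rested on single libraries. The da:da call was kept under every alternative. The da call was lost without control replicate 2 (adjusted p = 0.0543) or da replicate 2 (0.118), and the scute call without control replicate 1 (0.0566). The knock-down call was lost without control replicate 1 (adjusted p = 0.130), 2 (0.130) or 3 (0.0627) or knock-down replicate 1 (0.0917) or 3 (0.125). With library totals the knock-down change of tkv was 0.08 (adjusted p = 0.685).

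The other type I receptor gene, sax, encodes a receptor that binds Gbb in particular. It measured 31.6, 28.03 and 29.6 CPM in batch 1 controls, 41.0 and 35.2 with da, and 29.5, 24.9 and 30.7 with knock-down. Both da libraries lay above the controls, but the change of 0.36 ± 0.13 was not called (adjusted p = 0.0834). In the authors' deposited table its adjusted p was 0.0183. In batch 2 sax measured 46.8, 51.0 and 51.7 CPM in controls, 52.9, 53.5 and 61.5 with da:da, and 62.7, 59.5 and 67.8 with scute. It rose with scute by 0.34 ± 0.10 (adjusted p = 0.0113), and its change with da:da was 0.17 (adjusted p = 0.355).

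The type II receptor gene put (FBgn0003169, 3R:14619030-14625703), whose product serves both BMP and activin signalling, was called with none of the 3 Da constructs. It measured 24.5, 22.6 and 22.5 CPM in batch 1 controls, 21.8 and 26.6 with da, and 22.8, 21.7 and 24.1 with knock-down. The 95% interval of its log2 change ran from −0.23 to 0.35 with da, from −0.28 to 0.24 with knock-down and from −0.32 to 0.10 with da:da. In batch 2 put measured 39.3, 43.9 and 47.5 CPM in controls, 38.9, 41.4 and 40.5 with da:da, and 54.4, 54.2 and 58.8 with scute. The scute libraries lay above the controls, a rise of 0.36 ± 0.09 (adjusted p = 0.00832).

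Smads. Mad (FBgn0011648, 2L:3146056-3159643) encodes the receptor-activated Smad and had the widest range of change of the 9 members with at least 5 CPM in both controls, 2.503 log2 units over the 4 comparisons. It measured 124, 137 and 144 CPM in batch 1 controls, 327 and 300 with da, and 62.2, 63.0 and 63.0 with da knock-down. The 3 groups of batch 1 did not overlap. Mad was 2.32-fold higher with da (1.21 ± 0.12, adjusted p = 0.000102) and 2.15-fold lower with knock-down (−1.11 ± 0.11, adjusted p = 0.000236). Both calls were kept under every alternative, with log2 changes from 1.13 to 1.27 and from −1.47 to −1.06. No exon base of Mad is shared with another gene.

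In batch 2 Mad measured 158, 252 and 246 CPM in controls, 567, 591 and 567 with da:da, and 148, 141 and 156 with scute. The da:da libraries lay far above the controls, and the scute libraries lay just below the lowest control, which was the first of the 3. The rise with da:da was 1.40 ± 0.15 (2.63-fold, adjusted p = 8.74e-05), and it was kept under every alternative. The fall with scute was −0.56 ± 0.15 (adjusted p = 0.00968). It was −0.44 without control replicate 2 (adjusted p = 0.0519) and −0.11 with library totals (adjusted p = 0.556).

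The co-Smad gene Med (FBgn0011655, 3R:31611046-31615375) encodes the partner shared by BMP and activin Smads. It measured 33.8, 36.9 and 40.4 CPM in batch 1 controls, 51.6 and 55.1 with da, and 35.1, 31.2 and 37.8 with knock-down. Both da libraries lay above the controls, and the knock-down libraries overlapped them. Med rose with da by 0.53 ± 0.13 (adjusted p = 0.0159). This call was lost without control replicate 1 (adjusted p = 0.0618) or 2 (0.0625), without da replicate 2 (0.0903) and with library totals (0.0763).

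In batch 2 Med measured 46.8, 48.3 and 52.0 CPM in controls, 52.5, 53.1 and 48.7 with da:da, and 65.1, 64.7 and 56.8 with scute. It rose with scute by 0.34 ± 0.09 (adjusted p = 0.00911), and its change with da:da was 0.07 (adjusted p = 0.745). Of the exon bases of Med, 12.3% are shared with opposite-strand genes (CycG and CG11539), so part of its count may have been lost as ambiguous.

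Dad (FBgn0020493, 3R:17054007-17070408), the inhibitory Smad gene, varied widely between replicates in 3 of the 4 genotypes. It measured 17.9, 16.2 and 17.1 CPM in batch 1 controls, 29.3 and 20.8 with da, and 17.9, 17.3 and 19.3 with knock-down. The da libraries lay above the controls but apart from each other. The rise with da was 0.55 ± 0.16 (adjusted p = 0.0306). It was 0.29 without da replicate 1 (adjusted p = 0.214), and the call was also lost without control replicate 1 (0.0597), 2 (0.111) or 3 (0.0586), in a fit of the compared groups only (0.0581), in a fit of all 17 libraries (0.129) and with library totals (0.0701). In the authors' deposited table the adjusted p of Dad with da was 0.0813.

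Levels of Dad in batch 2 were 24.1, 24.7 and 25.1 CPM in controls, 16.2, 21.6 and 26.6 with da:da, and 21.2, 21.5 and 38.3 with scute. Both genotypes spread to both sides of the controls. Dad was called in neither (−0.20, adjusted p = 0.688, and 0.13, adjusted p = 0.693).

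Nuclear regulators. The gene brk (FBgn0024250, X:7307939-7311132) encodes Brinker, the repressor of pathway targets whose own transcription the pathway represses. It measured 9.84, 9.49 and 14.7 CPM in batch 1 controls, 9.82 and 9.19 with da, and 19.6, 18.1 and 27.8 with da knock-down. The knock-down libraries lay above all controls, while the da libraries overlapped them. The rise of brk with knock-down was 0.95 ± 0.21 (1.93-fold, adjusted p = 0.0138), and its change with da was −0.25 ± 0.24 (adjusted p = 0.491). The knock-down call was lost without control replicate 1 (adjusted p = 0.0565) or 2 (0.0662), and with library totals the rise was 0.60 (0.0517).

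In batch 2 brk measured 11.97, 12.5 and 13.5 CPM in controls, 6.08, 6.27 and 7.20 with da:da, and 15.3, 11.8 and 12.8 with scute. All da:da libraries lay below all controls, and the scute libraries overlapped them. The fall with da:da was −0.96 ± 0.14 (1.94-fold lower, adjusted p = 0.000748) and was kept under every alternative. With scute the change of brk was 0.07 (adjusted p = 0.717). It was 0.52 with library totals (adjusted p = 0.00789), which also raised the median of all genes.

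The gene shn encodes Schnurri, the cofactor with which Mad and Med silence brk. It measured 29.7, 26.5 and 39.5 CPM in batch 1 controls, 59.4 and 55.8 with da, and 29.2, 35.8 and 48.2 with knock-down. The da libraries lay above the controls and the knock-down libraries overlapped them. The rise with da was 0.85 ± 0.22 (1.81-fold, adjusted p = 0.0201), and with knock-down the change of shn was 0.24 (adjusted p = 0.438). The da call was lost without control replicate 1 (adjusted p = 0.0667) or 2 (0.0787) and without da replicate 1 (0.0814) or 2 (0.0722).

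In batch 2 shn measured 77.9, 88.2 and 91.7 CPM in controls, 121, 129 and 142 with da:da, and 85.7, 85.4 and 89.9 with scute. The da:da libraries lay above all others. The rise with da:da was 0.60 ± 0.10 (1.52-fold, adjusted p = 0.00137) and was kept under every alternative. With scute the change of shn was 0.02 (adjusted p = 0.908). It was 0.46 with library totals (adjusted p = 0.00224), which also raised the median of all genes.

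The scaling bears on the da knock-down and scute comparisons. TMM factors were 0.837 to 0.884 with knock-down and 1.06 to 1.17 in batch 1 controls, and 1.17 to 1.22 with scute and 0.862 to 0.907 in batch 2 controls. Library totals in place of TMM moved the median of all genes tested to −0.10 with da, −0.37 with knock-down, 0.10 with da:da and 0.49 with scute. Under that scaling gbb, sax and Med were also called lower with knock-down, at −0.69 (adjusted p = 0.0320), −0.43 (0.0377) and −0.45 (0.0376). Of all 9540 genes tested, 3166 were called there in either direction, against 1947 with TMM. Both sax and Med lay near the median of −0.37, and gbb lay below it. Against these medians Mad was lower with knock-down, at −1.47, and higher with da:da, at 1.52. With scute gbb (−0.15) and Mad (−0.11) lay below the median of 0.49, and brk (0.52) and shn (0.46) lay near it.

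**Figure D3:**
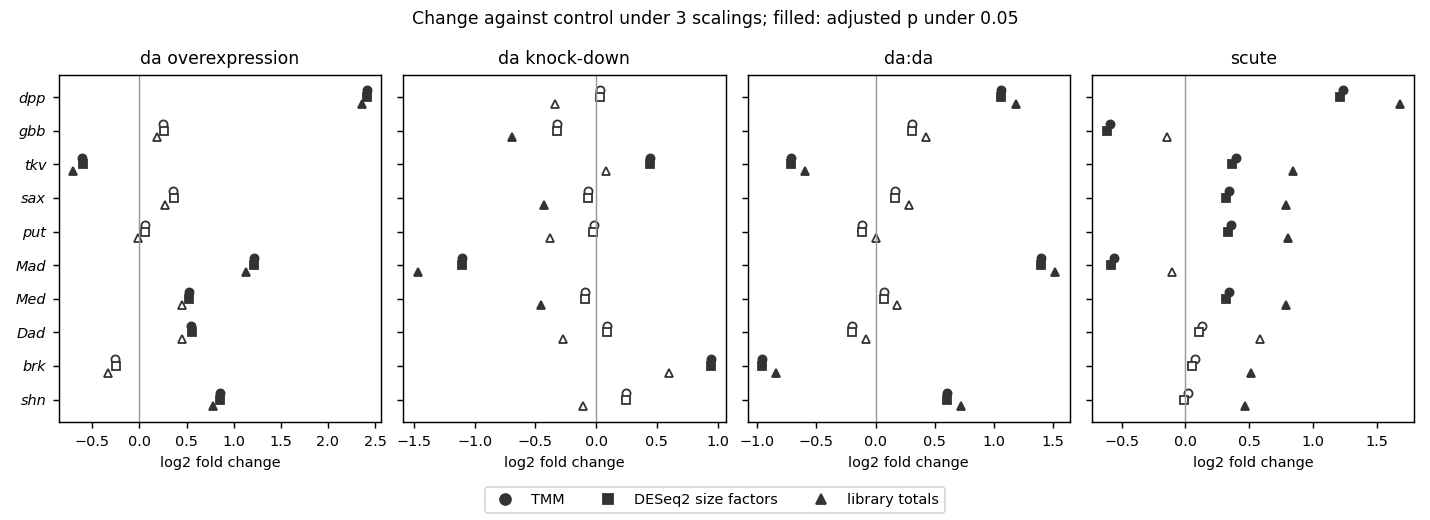
Log2 fold change of each gene against its control under 3 ways of scaling the libraries: TMM (circles), DESeq2 size factors (squares) and library totals (triangles). Filled symbols are called at adjusted p under 0.05. Triangles lie left of the other symbols with da knock-down and right of them with scute, by about the shift of the median of all genes, −0.37 and 0.49.

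Da overexpression and knock-down were then compared directly within batch 1. Of the 10 members 6 were higher with da (dpp, gbb, sax, Mad, Med and Dad) and 2 lower (tkv and brk), where 30.1% of all genes were called (16.0% higher, 14.1% lower). Mad differed 4.99-fold (2.32 ± 0.12, adjusted p = 1.32e-06), from 300 and 327 CPM down to 62.2 to 63.0. The difference was −1.05 ± 0.15 for tkv (adjusted p = 0.000684), −1.20 ± 0.25 for brk (adjusted p = 0.00529) and 0.62 ± 0.13 for Med (adjusted p = 0.00544). These 4 calls, for Mad, tkv, brk and Med, were kept under every alternative.

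The other 4 calls between da and knock-down were each lost when single libraries were left out. The difference was 2.38 ± 0.62 for dpp (adjusted p = 0.0167), and 1.39 without da replicate 2 (0.221). It was 0.58 ± 0.19 for gbb (adjusted p = 0.03998), 0.43 ± 0.13 for sax (0.0366) and 0.46 ± 0.16 for Dad (0.0496). Without da replicate 2 the gbb difference was 0.27 (adjusted p = 0.344), and without da replicate 1 those of sax and Dad were 0.32 (0.187) and 0.21 (0.354). The gbb call was also lost without any of the 6 control and knock-down libraries (adjusted p from 0.0501 to 0.108), and the Dad call likewise (0.0625 to 0.118). The sax call was also lost without control replicate 1 (0.0510) or 2 (0.0620), da replicate 2 (0.0506) or knock-down replicate 1 (0.0626) or 2 (0.103), and the dpp call without knock-down replicate 1 (0.0533). For shn the difference of 0.61 ± 0.22 was not called (adjusted p = 0.0628), but it was under 8 of 17 alternatives. Among these were DESeq2 (0.61, adjusted p = 0.0329), no filter (0.61, 0.0180), all 17 libraries in 1 fit (0.56, 0.0206), library totals (0.88, 0.00873), and leaving out knock-down replicate 3 (0.83, 0.0162) or control replicate 3 (0.61, 0.0410).

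Scute and da:da were compared directly within batch 2, the forced Da homodimer against the proneural partner of Da. Of the 10 members 4 were higher with scute (tkv, put, Med and brk) and 3 lower (gbb, Mad and shn), where 42.7% of all genes were called (21.4% higher, 21.2% lower). Mad was 3.87-fold lower with scute (−1.95 ± 0.16, adjusted p = 1.18e-06). Both tkv (1.11 ± 0.12, adjusted p = 9.50e-06) and brk (1.03 ± 0.14, adjusted p = 8.49e-05) were higher with scute, 2.15-fold and 2.04-fold. The difference was −0.90 ± 0.14 for gbb (adjusted p = 0.000283), 0.47 ± 0.09 for put (0.00162) and −0.59 ± 0.10 for shn (0.000364). With library totals shn was no longer called (−0.26, adjusted p = 0.0515), whereas sax (0.50, 0.00192) and Dad (0.66, 0.0485) were. That scaling also raised the median change of all genes more with scute than with da:da. For Med the difference was 0.27 ± 0.09 (adjusted p = 0.0311), a call lost without da:da replicate 1 (0.0695), 2 (0.0673) or 3 (0.169) or scute replicate 1 (0.108) or 2 (0.121). The Med call was also lost with DESeq2 size factors (0.0630), with DESeq2 (0.0736), with the compared groups only (0.0711) and with all 17 libraries in 1 fit (0.0569). No difference was called for dpp, which rose in both (0.17, 95% interval −0.36 to 0.71).

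The changes in the different batches were compared as differences of changes in 1 fit of all 17 libraries. Between the da:da change and the da change, 0 of 10 members were called, where 6.99% of all genes were (2.50% higher, 4.49% lower). At an unadjusted p under 0.05 there were 4, but the share of all genes under that threshold was not computed. DESeq2 called 1 member (Med, −0.43, adjusted p = 0.0368). The interval of this difference ran from −0.17 to 0.68 for Mad, from −0.41 to 0.34 for tkv and from −0.66 to 0.30 for shn. For brk the da:da change was lower than the da change by −0.63 ± 0.26 (adjusted p = 0.180), and this was called without batch 1 control replicate 3 (−0.86, adjusted p = 0.0357). For Med and Dad the difference was −0.39 ± 0.15 (adjusted p = 0.143) and −0.68 ± 0.30 (0.225).

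Between the scute change and the da change, 1 member was higher (tkv, 1.05 ± 0.18, adjusted p = 0.000226) and 3 were lower, where 28.5% of all genes were called (12.6% higher, 15.9% lower). The lower members were Mad (−1.73 ± 0.20, adjusted p = 4.34e-06), gbb (−0.80 ± 0.24, adjusted p = 0.0157) and shn (−0.79 ± 0.23, adjusted p = 0.0135). The tkv and Mad differences were kept under every alternative. The gbb difference was −0.46 without da replicate 2 (adjusted p = 0.200). With library totals the differences of gbb and shn were −0.33 (0.385) and −0.31 (0.346). Those of sax (0.52, 0.0329), put (0.82, 0.00314) and brk (0.85, 0.0269) were called, against 0.03, 0.34 and 0.37 with TMM. Library totals also raised the median change of all genes with scute and lowered it with da. Neither the median of this difference nor the share of all genes called was computed under that scaling. Among members not called, dpp was called without da replicate 1 (−1.71, adjusted p = 0.0373), put without da replicate 2 (0.52, 0.0303) and Dad without scute replicate 3 (−0.80, 0.0182).

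**Figure D4:**
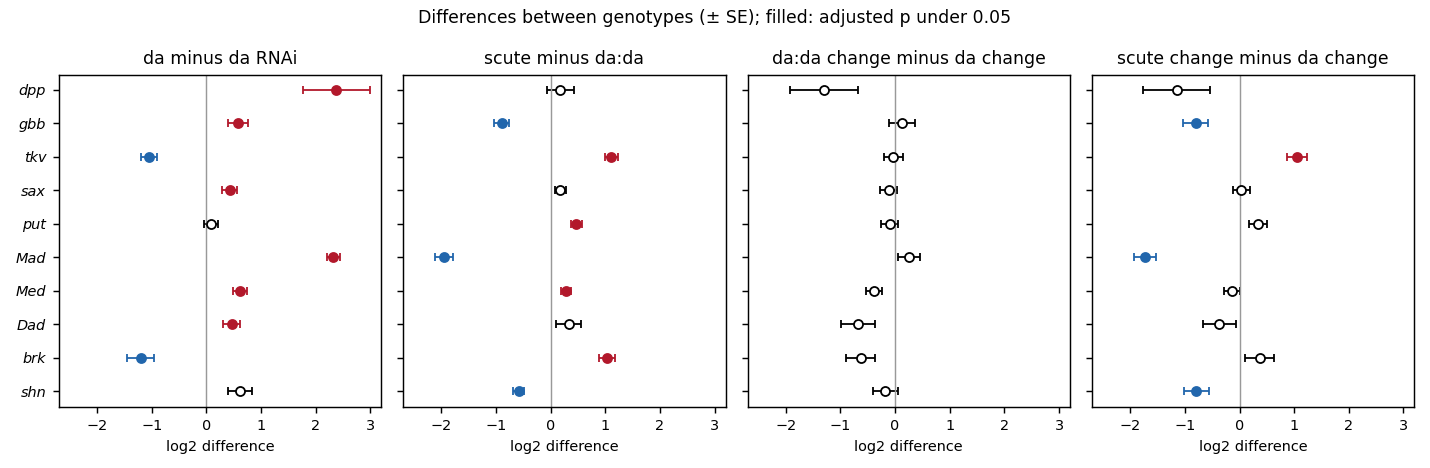
Log2 differences between genotypes for each gene, with bars of 1 SE: da minus da RNAi, scute minus da:da, and the da:da and scute changes minus the da change. Filled points are called at adjusted p under 0.05, red higher and blue lower. Mad is at 2.32 and −1.95 in the 2 direct comparisons and tkv at −1.05 and 1.11, and no gene is filled in the da:da against da panel.

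Comparisons of different batches share no libraries, so their calls were set side by side. Of the 6 members called with da and the 5 called with da:da, 4 were called in the same direction in both (dpp, tkv, Mad and shn), which is 66.7% of the da calls and 80% of the da:da calls. Over all 9494 genes tested in both batches, 787 were called in the same direction, 36.2% of the da calls and 49.8% of the da:da calls. All 3 members called with da knock-down (tkv, Mad and brk) were called in the opposite direction with da:da, which is 60% of the da:da calls, and 416 genes in all did so, 21.4% and 26.3% of the respective calls. Between da and scute 2 members had calls in the same direction (dpp and Med) and 2 in opposite directions (tkv and Mad), each 33.3% of the da calls. Over all genes these were 1058 and 412, 48.7% and 19.0% of the da calls. Between knock-down and scute 2 members had calls in the same direction (tkv and Mad) and 0 in opposite directions. Over all genes 443 and 886 did so, 22.8% and 45.6% of the knock-down calls.

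The genes whose 4 changes were most like those of Mad were searched among 5731 genes with at least 5 CPM in both controls. By the root mean square difference of the log2 changes over the 4 comparisons they were Pfrx (0.307), Mhcl (0.335) and pirk (0.340). Pfrx changed by 1.32 with da, −0.70 with knock-down, 1.19 with da:da and −0.95 with scute. Mhcl changed by 1.26, −1.02, 1.26 and 0.09, and pirk, a negative regulator of the Imd immune pathway, by 0.96, −1.67, 1.16 and −0.38. This order is a description over 4 values, with no test.

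A wider list of 30 genes covers other ligands, receptors, extracellular regulators, intracellular factors and targets of BMP and activin signalling. With da 7 of the 20 tested rose and 1 fell, where 22.9% of all genes were called, and with da knock-down 2 rose and 1 fell, where 20.4% were. With da:da 6 of 30 rose and 2 fell, against 11.9% of all genes, and with scute 14 rose and 4 fell, against 45.0%. The median log2 change of the list and of all genes tested was 0.54 and −0.02 with da, −0.08 and −0.01 with knock-down, 0.17 and −0.01 with da:da, and 0.29 and 0.05 with scute. Of these calls 3 of 8 with da, 1 of 3 with knock-down, 7 of 8 with da:da and 15 of 18 with scute were kept under every alternative.

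Several extracellular regulators rose with both da and da:da. The gene dally encodes a glypican co-receptor that shapes Dpp distribution, and it went from 63.3 ± 4.93 to 124 ± 12.003 CPM with da (0.97, adjusted p = 0.00242). With da:da it went from 119 ± 31.7 to 236 ± 9.06 CPM (0.99, adjusted p = 0.00170), and with scute dally measured 119.5 ± 4.49 (0.00, adjusted p = 0.989). The related glypican gene dlp rose with da:da (1.00, adjusted p = 0.000529) and scute (0.75, adjusted p = 0.000811). Its rise with da (0.89, adjusted p = 0.0223) was lost without control replicate 1 (0.0621) or 2 (0.0842) or da replicate 2 (0.140).

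The gene cv encodes a Tsg-like carrier of BMP ligands and followed the directions of Mad in all 4 genotypes. It measured 4.66 ± 0.670 CPM in batch 1 controls, 10.7 ± 0.652 with da and 2.46 ± 0.270 with knock-down, changes of 1.20 (adjusted p = 0.00163) and −0.92 (adjusted p = 0.00637). In batch 2 it measured 8.91 ± 0.617 CPM in controls, 17.1 ± 1.45 with da:da and 5.43 ± 0.586 with scute, changes of 0.94 (adjusted p = 0.000583) and −0.71 (adjusted p = 0.000847). With library totals the scute change of cv was −0.27 (adjusted p = 0.0830). Opposite-strand genes share 54.9% of the exon bases of cv, so its counts are uncertain where strand was not used.

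The gene cv-2 encodes a secreted BMP-binding protein and was called higher in all 4 genotypes. It measured 83.2 ± 26.8 CPM in batch 1 controls, 186 ± 19.8 with da and 199 ± 66.5 with knock-down, and 78.4 ± 2.12 in batch 2 controls, 197 ± 16.1 with da:da and 142 ± 22.0 with scute. The changes were 1.16 (adjusted p = 0.0211), 1.26 (0.0122), 1.33 (1.42e-05) and 0.85 (7.61e-05). The da call for cv-2 was lost without control replicate 1 (0.0667) or 2 (0.0757) or da replicate 1 (0.0508) or 2 (0.112), and the knock-down call without control replicate 2 (0.0578).

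Among the activin-type ligands, daw rose with da:da by 1.54 (adjusted p = 0.00207) and fell with scute by 2.02 on the log2 scale (adjusted p = 8.39e-05). Its rises with da (0.98, adjusted p = 0.0325) and knock-down (1.18, adjusted p = 0.0118) were lost without batch 1 control replicate 1 (0.101 and 0.0514) or 2 (0.112 and 0.0581), and the da rise of daw also without da replicate 2 (0.302). With scute, Actbeta rose from 2.36 ± 0.416 to 13.1 ± 3.497 CPM (2.47, adjusted p = 1.28e-05). The type II receptor gene wit, known for its role at the neuromuscular synapse, rose from 2.47 ± 0.736 to 10.9 ± 1.12 CPM (2.14, adjusted p = 4.82e-05). Both genes are also expressed in neurons. Of the 10 enteroendocrine markers 9 were higher with scute and 1 was lower, where 22.8% and 22.2% of all genes were. Their median log2 change was 3.91, and their sums were 3990 to 4402 CPM in controls and 4735 to 7951 with scute. Such a sum weighs the most abundant markers most and does not follow the typical one. The part of enteroendocrine cells in the rises of Actbeta and wit was not tested.

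Of the 7 target genes known from other fly tissues, vn was the only one called in more than 1 comparison. It encodes an EGFR ligand and measured 20.4 ± 4.03 CPM in batch 1 controls and 9.90 ± 0.362 with da (−1.04, adjusted p = 0.00276). In batch 2 vn measured 82.5 ± 37.0 CPM in controls, 22.9 ± 2.03 with da:da (−1.85, adjusted p = 0.000314) and 8.69 ± 0.785 with scute (−3.25, adjusted p = 9.15e-07). With scute salr rose by 1.09 and lab, which is also a copper cell marker, by 1.03 (adjusted p = 0.00344). The 3 copper cell markers, lab among them, summed to 54.1 to 67.6 CPM in batch 2 controls, 83.3 to 113 with da:da and 159 to 207 with scute. In batch 1 their sum was 19.9 to 25.4 CPM in controls, 34.0 to 39.6 with da and 23.2 to 32.9 with knock-down. The Smad ubiquitin ligase gene Smurf rose with scute (0.60, adjusted p = 0.000309). It also rose with da (0.67, adjusted p = 0.00823), a call lost without da replicate 2 (0.0671).

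**Figure D5:**
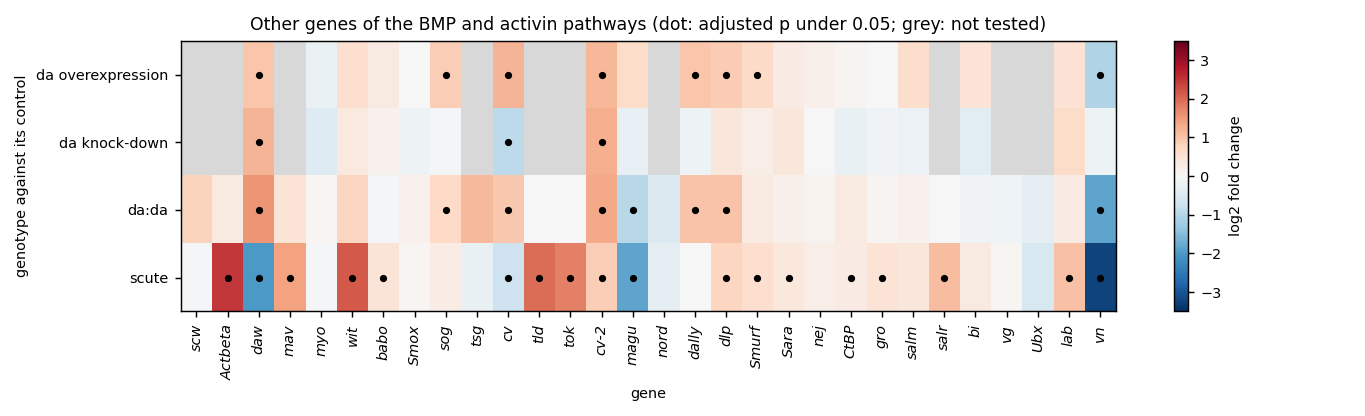
Log2 fold change of 30 other genes of the BMP and activin pathways (columns) in each genotype against its control (rows), red higher and blue lower. Dots mark adjusted p under 0.05 and grey cells were not tested. The column of cv-2 has a dot in all 4 rows, vn is blue with a dot with da, da:da and scute, and Actbeta (2.47) and wit (2.14) are red with a dot with scute alone.

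Cell type markers moved with some genotypes. The summed level of the 8 progenitor markers was 1446 to 1597 CPM in batch 1 controls, 1636 to 2049 with da, 1134 to 1317 with knock-down, 2008 to 2332 in batch 2 controls, 3100 to 3369 with da:da and 1324 to 1727 with scute. Its groups thus had the same order as those of Mad in both batches. Of these 8 markers 2 rose with da, 1 rose and 4 fell with knock-down, 3 rose with da:da, and 1 rose and 5 fell with scute. Of all genes tested, 13.5% rose and 9.36% fell with da, and 11.2% rose and 9.16% fell with knock-down. With da:da 5.39% rose and 6.52% fell, and with scute 22.8% rose and 22.2% fell. The 10 enterocyte markers summed to 430 to 696 CPM in batch 1 controls and 706 to 1250 with knock-down, where 4 rose. Of the 10 enteroendocrine markers 5 fell with da (median log2 change −1.65), 6 with knock-down (−2.51) and 3 with da:da (0.10), and none rose in these genotypes. Their sum weighs the most abundant markers most. In batch 1 it was 195 to 256 CPM in controls, 86.0 to 539 with da and 115 to 249 with knock-down. With da:da it was 4691 to 8137 CPM, against 3990 to 4402 in batch 2 controls. The part of these shifts in the changes of Mad, tkv and brk was not tested.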

How the data were processed

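Per the labels' protocols, RNA of the sorted cells (PicoPure isolation) was amplified by RiboAmp before a stranded mRNA library was made. Replicates were separate preparations, each from its own pool of midguts, per the series' design text. The authors deposited raw read counts per gene, made with featureCounts 2.0.2 on exons of BDGP6.28, release 101, without a strand option, per the file headers. Paired libraries of batch 2 were counted per mate, per the file headers, so their counts are not independent fragments. The log2 fold changes and adjusted p-values in the authors' deposited table were used only for comparison. Of its 40 values for these genes, 38 lay on the same side of 0.05 and 39 had the same sign, with the largest log2 difference at 0.0342. The aligner is not given in the sources used here. A deposited sheet of counts without gene identifiers was not used.

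Counts were filtered with filterByExpr, scaled by TMM and fitted with 1 mean per group in edgeR 4.0.16 (R 4.3.3, limma 3.58.1), separately for batch 1 (8 libraries, 9540 genes) and batch 2 (9 libraries, 14190 genes). Differences of changes between batches came from 1 fit of 17 libraries (14083 genes). Adjustment was over all genes tested, 95% intervals used the test's own degrees of freedom, and the fit was tested on simulated data. DESeq2 1.42.0, its size factors, filters, other sample sets, replicate blocks, leaving out each library and library totals were alternatives. Library totals and the blocks of a subset or with swapped numbers were added after seeing the data, as were all alternatives for the wider list. Same-numbered control and da knock-down libraries deviated together (r = 0.187, 0.190 and 0.287), and those of da overexpression did not (control, r = −0.0903 and −0.233), nor did those of batch 2 (r from −0.110 to 0.159). A pairing of control and knock-down libraries by number is thus read from the data and not the labels, and the main fits did not use it. The knock-down p-values in the Results, and the knock-down calls lost without single libraries, ignore such a pairing. A block over these 6 libraries gave the same 3 calls among the members and 2676 calls over all genes, against 1947.

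All 10 members and every wider gene called were open to naming. The genes most like the member with the widest range were named by the smallest root mean square difference. The members and gene lists were chosen with earlier results of these data known.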

Additional observations from a re-analysis of the deposited data

How the results depend on the processing

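Of 40 calls for the 10 members, 21 were kept under every alternative. Depth limits dpp in batch 1, at 4 to 13 counts in controls. The number of members called fell from 8 to 5 between da and da knock-down when only those groups were fitted, and rose from 0 to 1 for the da:da change minus the da change with DESeq2 (Med) and with the replicate block (brk). All genes called with knock-down numbered 1947, and 3166 with library totals. Leaving out 1 library at a time gave 2 to 6 members with da (2 without control replicate 1, control replicate 2 or da replicate 2), 1 to 3 with knock-down (1 without control replicate 1 or 2), 4 to 7 between da and knock-down (4 without knock-down replicate 1, and 5 without control replicate 1 or 2, da replicate 2 or knock-down replicate 2), 4 to 5 with da:da, 6 to 7 with scute and 0 to 1 for da:da minus da (1 without batch 1 control replicate 3). All genes called ranged from 937 to 2163 with knock-down (1095 and 937 without control replicates 1 and 2) and from 1339 to 2118 with da (1379 without control replicate 2, 1339 without da replicate 2). They ranged from 1196 to 1863 with da:da and from 5627 to 6553 with scute. The replicate block changed 3 other member calls: sax with da (adjusted p = 0.0386), and gbb and shn between da and knock-down, and no further one. With the 2 da overexpression numbers swapped in the block, 6 members were called with da and 7 between da and knock-down.

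Signs turned only for log2 values that were not called. With library totals these became −0.012 for put with da, −0.34 for dpp, −0.27 for Dad and −0.11 for shn with knock-down, and 0.0057 for put with da:da. For the da:da change minus the da change they became 0.11 for tkv, 0.019 for sax and 0.018 for put, and for scute minus da 0.34 for Med and 0.13 for Dad. For shn with scute the value was −0.0080 with DESeq2 size factors and with DESeq2, and −0.016 with the compared groups only. When 1 library was left out the values ranged, with da, from −0.059 to 0.51 for gbb and from −0.093 to 0.20 for put, and with knock-down from −0.25 to 0.51 for dpp, −0.13 to 0.016 for sax and −0.063 to 0.018 for put. With scute they ranged from −0.20 to 0.28 for Dad, −0.041 to 0.15 for brk and −0.050 to 0.068 for shn. The ranges were −0.074 to 0.23 for put between da and knock-down, and −0.0048 to 0.48 for Dad between scute and da:da. For da:da minus da they were −0.15 to 0.46 for gbb, −0.12 to 0.085 for tkv and −0.26 to 0.072 for put, and for scute minus da −0.11 to 0.13 for sax. The cause was not tested.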
